A study of Oryza sativa with 2 samples.

Results

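The enzymes that carry inorganic nitrogen into amino acids were examined in root hairs of rice, the hair-like extensions by which epidermal cells of the root enlarge their uptake surface. The list held 10 loci: the cytosolic glutamine synthetases GS1;1 (Os02g0735200), GS1;2 (Os03g0223400) and GS1;3 (Os03g0712800), the plastid glutamine synthetase GS2 (Os04g0659100), the glutamate synthases NADH-GOGAT1 (Os01g0681900), NADH-GOGAT2 (Os05g0555600) and Fd-GOGAT (Os07g0658400), the nitrate reductase NIA1 (Os08g0468100), the nitrite reductase NIR1 (Os01g0357100) and the asparagine synthetase AS1 (Os03g0291500). A probe belonged to a locus when the systematic name in the scanner files began with that locus identifier. By this rule 9 of the 10 enzymes were on the array, with 23 probes, among 23783 loci in all, and AS1 had none. The digits after "Os" in each identifier name its chromosome. Coordinates are not given, because the reference table used here is on another genome build than the probes.

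Both arrays came from 1 group, titled "07g39940 over", with replicates 1 and 2 (n = 2), here sample 1 and sample 2. The plants were rice of the cultivar labelled Don-gin, raised from sterilised seed on MSO medium and labelled 3DAG. Root hairs were rubbed off seminal roots in liquid nitrogen, and total RNA (100 ng) was labelled with Cy3. The labels do not state what "over" means or whether both samples come from separate plants or lines, and no control group is used here, so the difference between the samples may be technical and no effect of the titled locus was tested.

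Plants take up nitrate and ammonium at the root surface. Nitrate reductase in the cytosol turns nitrate into nitrite, nitrite reductase in the plastid turns nitrite into ammonium, and glutamine synthetase joins ammonium to glutamate to make glutamine. Glutamate synthase, also in the plastid, then passes the amide group on to form new glutamate, drawing electrons from NADH or from ferredoxin, and asparagine synthetase uses glutamine to make asparagine for transport. In rice, GS1;2 and NADH-GOGAT1 are known as the root enzymes that respond to ammonium, whereas GS2 and Fd-GOGAT are best known from green leaves, where they recover the ammonium of photorespiration.

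The scanner software called 83.2% (35884) of 43144 gene spots well above background on the first array and 85.0% (36663) on the second. Before differences were taken, log2 signals were scaled by each array's 75th percentile, which lay at 2722 and 2770. Among 24 probes of random or artificial sequence, which measure unspecific binding, the highest signal was 44.0 in sample 1 and 49.9 in sample 2. Root hair markers were present, with CSLD1 at 46042 and 51117 and XXT1 at 48800 and 47716, and each of the 4 listed loci that had probes (of 6) was detected in sample 1 and in sample 2. The other 2 were FH1 at 195 and 242 and Os10g0122600 at 148676 and 128816. Log2 differences of the 4 (sample 2 minus sample 1) ran from -0.23 to 0.29, with 2 in each direction. Leaf and photosynthesis markers were detected at 11 of 11 loci, with a summed signal over loci of 3314 in sample 1 and 5387 in sample 2. Their mean signals exceeded the highest control probe at 4 loci in sample 1 and 9 in sample 2. Seed and aleurone markers summed to 9582 and 433, were above that probe at 8 of 9 loci and at 2, and AMY3D was not detected in either sample. Stele and endodermis markers summed to 277 and 215, with 2 of 5 loci above it in each sample and SCR1 and HKT1;5 not detected. The part of these other cell types in the values below was not tested.

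All 9 enzymes with probes gave a detected transcript in each sample. That share is to be read against 84% of all loci detected in both samples. Against the stricter limit of the highest control probe, 8 of the 9 passed in both samples by at least 1 probe, compared with 69.5% of all loci, and GS1;3 did not. By the mean signal of a locus, the measure given for the markers, 8 passed in sample 1 and 7 in sample 2. Levels of different probes are not ranked against each other, since probes bind with different strength and the array has no common scale for them. In these bulk samples fewer cells of a type and less RNA per cell cannot be told apart.

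**Figure D1:**
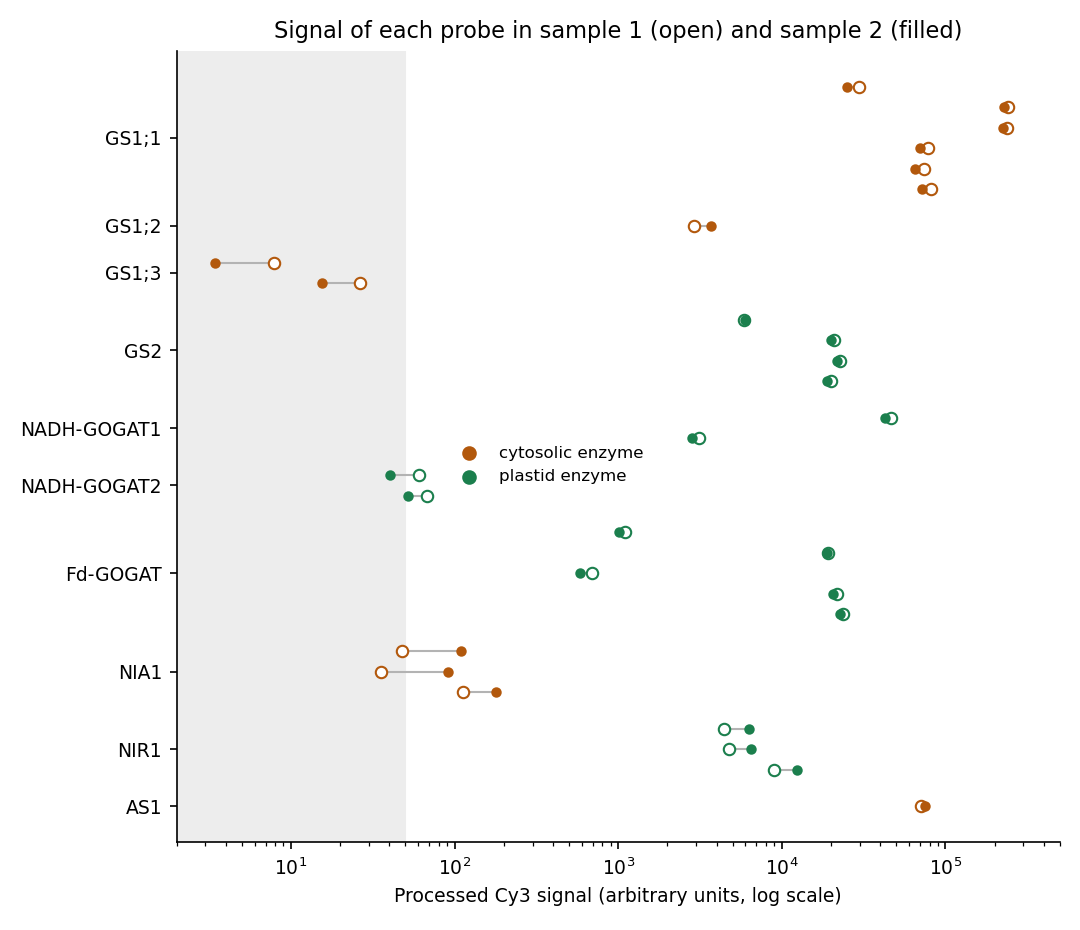
Processed Cy3 signal of every probe of the 10 enzymes (x axis, arbitrary units, log scale), with sample 1 as open and sample 2 as filled points joined by a line, and the grey area ending at 49.9, the highest random or artificial control probe in sample 2. Both GS1;3 probes lie inside the grey area, all NIA1, NIR1 and GS1;2 probes lie further right in sample 2 than in sample 1, and the AS1 probe and 5 others are placed by their probe name alone.

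The cytosolic glutamine synthetases differed between the samples by little for GS1;1, upward in sample 2 for GS1;2, and only at signals under the control limit for GS1;3. The 4 probes of GS1;1 read 239807, 237591, 78252 and 29637 in sample 1 and 228324, 224810, 69823 and 25142 in sample 2. Every probe was slightly lower in sample 2, and the log2 difference (sample 2 minus sample 1) was -0.16 (SD 0.08 over 4 probes). The scanner software gives each spot an error, such as 2964 on the signal of 29637, and from these a log2 difference of bright spots has an error of 0.20. That error is for a single spot. The mean difference of GS1;1 is smaller than it, and 1 of the 4 probes exceeded it (-0.26).

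GS1;2, the cytosolic form that rice roots induce with ammonium, was read by 1 probe at 2905 ± 290 (software error) in sample 1 and 3676 ± 368 in sample 2. Its log2 difference was 0.31, beyond the software error of 0.20. To set such values against the whole array, the detected probes were ordered by mean signal and divided into 4 bins of equal size, from bin 1, the faintest, to bin 4, the brightest. In bin 3, which holds GS1;2, the SD of the difference was 0.21, and 2.97% of probes were at least as much higher in sample 2. In bin 4, which holds the 4 GS1;1 probes, the SD was 0.11. The shares of bin 4 at least as much lower in sample 2 as these probes were 1.47%, 4.6%, 19.9% and 22.6%. GS1;3, a form known from rice spikelets, was read at 26.3 and 15.4 by 1 probe, while the other probe (7.86 and 3.43) missed the detection call in both samples. Neither probe exceeded the highest control probe, so the log2 difference of -0.80 rests on signals in the range of unspecific binding.

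GS2, the plastid glutamine synthetase, was detected by all 4 of its probes. Their signals were 22551, 20849, 20109 and 5881 in sample 1 and 21639, 20106, 18820 and 5957 in sample 2. The log2 difference was -0.07 (SD 0.05 over 4 probes), and for none of the probes did it exceed the software error. The leaf and photosynthesis markers were higher in sample 2 at 11 of 11 loci, with a median log2 difference of 2.00 and a range of 0.15 to 4.12. These markers were uneven among themselves. CAB2R, a light-harvesting protein, read 36.1 and 637 and had the largest difference. Os11g0242800 read 2066 and 2376 (log2 difference 0.18), Os07g0141400 read 520 and 638 (0.27), and Os07g0544800 read 265 and 298 (0.15), while the other 8 differed by 0.67 to 4.12. The 4 markers above the highest control probe in sample 1 were these 3 and Os03g0592500. The latter differed by 2.05, with probes that disagreed widely (SD 2.01 over 5 probes). The part of leaf tissue in the GS2 signal was not tested.

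All 3 glutamate synthases read lower in sample 2, and NADH-GOGAT2 did so near the control probes. NADH-GOGAT1, the root form, read 46539 ± 4654 in sample 1 and 42984 ± 4298 in sample 2 on its only probe, a log2 difference of -0.14 that lies within the software error of 0.20. The local background of this spot carries an outlier flag in sample 1, and the spot itself carries none. NADH-GOGAT2, known from vascular tissue of rice leaves, read 68.1 and 60.8 in sample 1 and 51.8 and 40.1 in sample 2. Both probes were lower in sample 2 (log2 difference -0.52, SD 0.15 over 2 probes), and 1 of them fell under the highest control probe there. Of all probes in bin 1, which holds both, 4.90% and 2.55% were at least as much lower in sample 2.

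Fd-GOGAT, the ferredoxin-dependent form, was read by 3 probes. The probe designed over the coding sequence and 3′ UTR gave 19288 and 18886, and the 2 probes over the 5′ UTR and coding sequence gave 1099 and 694 in sample 1 and 1006 and 584 in sample 2. All were slightly lower in sample 2, and the log2 difference was -0.16 (SD 0.11 over 3 probes). The part of leaf tissue in this signal was not tested either. Another 2 probes carry the Fd-GOGAT identifier in their probe name but a different systematic name, and they differed by -0.10 and -0.08. Taken by either name, the 17 probes of GS1;1, GS2, NADH-GOGAT1 and Fd-GOGAT all had differences between -0.28 and -0.01. This grouping was not planned, and it leaves out GS1;2 (0.31), GS1;3 (-0.80) and NADH-GOGAT2 (-0.52). Differences of this size were common among similarly bright probes. In bin 4, the share at least as much lower in sample 2 was 15.2% to 61.0% for the GS2 probes and 11.0% for NADH-GOGAT1. For the 3 Fd-GOGAT probes by systematic name it was 38.8% in bin 4, 8.32% in bin 3 and 3.89% in bin 2. Probes of a locus were read on the same 2 arrays and are not independent.

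The enzymes of nitrate reduction were both higher in sample 2, and NIA1 had the largest difference of the 9 as reported. NIA1, nitrate reductase, read 112, 48.0 and 35.7 in sample 1 and 179, 109 and 91.7 in sample 2. Each of its 3 probes was higher in sample 2, by log2 differences of 0.65, 1.16 and 1.34, each with a software error of 0.21. The mean was 1.05 (SD 0.35 over 3 probes), a 2.07-fold difference. In sample 1, 1 of the probes did not exceed the highest control probe. At such signals differences of this size are not rare: in bin 1, 5.20% and 3.64% of probes were at least as much higher in sample 2 as the fainter pair of NIA1 probes, and in bin 2, 4.35% were so for the brightest. The mean NIA1 difference was 0.57 after normexp background correction, 0.59 in the authors' deposited table and 0.65 on the brightest probe alone. The direction held in each, and the cause of the change in size was not tested.

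NIR1, nitrite reductase, read 4421 ± 442 and 4741 ± 474 in sample 1 and 6319 ± 632 and 6530 ± 653 in sample 2 on the probes named for it. The probe named for Os02g0765900, another nitrite reductase locus by rice nomenclature, carries the systematic name of NIR1 and read 8988 and 12380. The 3 probes gave log2 differences of 0.49, 0.44 and 0.44, and the locus mean was 0.45 (SD 0.03), a 1.37-fold difference. These signals lie in bin 4, where the SD of the difference was 0.11, and 0.131% to 0.301% of probes there were at least as much higher in sample 2. Without the probe named for the other locus the mean was 0.46. Across both enzymes, 6 of 6 probes were higher in sample 2, by 0.44 to 1.34.

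**Figure D2:**
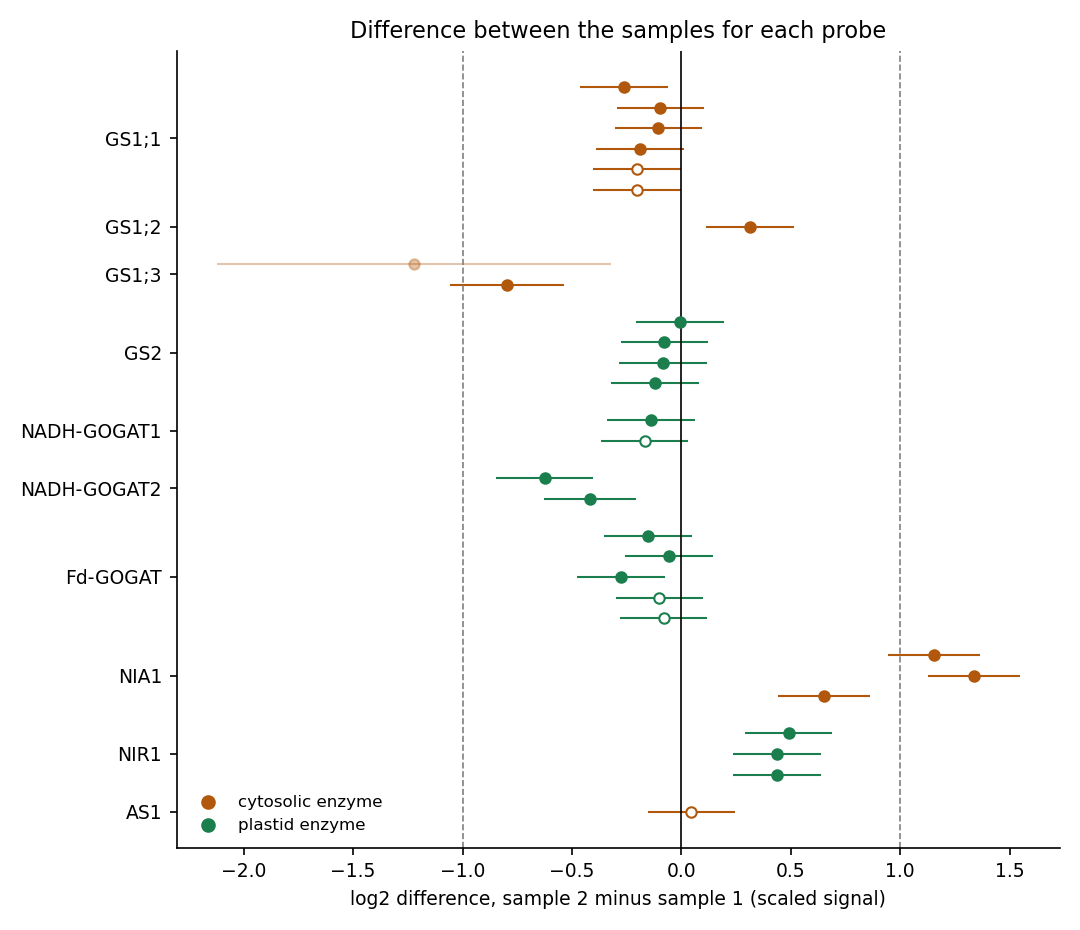
Log2 difference between the samples (x axis, sample 2 minus sample 1, scaled signal) for every probe, with bars for the software error of the difference and dashed lines at 2-fold. Filled points are probes assigned by systematic name, open points those assigned by probe name alone and the pale point the GS1;3 probe that was not well above background, and the NIA1, NIR1 and GS1;2 probes lie to the right of 0 by more than their bars.

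AS1, asparagine synthetase, could be followed only through a probe that names Os03g0291500 in its probe name and carries another systematic name. That probe read 71064 ± 7106 in sample 1 and 74682 ± 7468 in sample 2, a log2 difference of 0.05. It was not counted among the members.

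Set by compartment, the cytosolic and plastid forms did not separate. The 4 cytosolic forms on the array had a median log2 difference of 0.08 (-0.02 with median scaling of the arrays) and ranged from -0.80 to 1.05, and the 5 plastid forms had a median of -0.14 and ranged from -0.52 to 0.45. Each compartment held both directions, with 2 of 4 cytosolic and 1 of 5 plastid forms higher in sample 2. Within the plastid, the NADH-dependent GOGAT1 (-0.14) and the ferredoxin-dependent Fd-GOGAT (-0.16) had nearly the same difference. The median of all loci detected in both samples was 0.03. Ordered by reaction, a grouping chosen after the values were seen, NIA1, in the cytosol, and NIR1, in the plastid, were higher in sample 2, while 6 of the 7 glutamine and glutamate synthases read lower there, 4 of them by less than the software error, and GS1;2 read higher.

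Over the 9 enzymes, 3 were higher in sample 2, compared with 57.2% of all detected loci, a share that ranged from 36.1% to 57.6% with the scaling and processing while the count of 3 changed only to 4, when AS1 was added by its probe name. That share pools faint and bright loci. In bin 4, the brightest, 61.0% of probes were at least as much lower in sample 2 as a GS2 probe at -0.007. By the 2-fold rule 1 enzyme, NIA1, was apart, compared with 2.31% of all detected loci. Among probes as faint as those of NIA1, the share 2-fold apart was 8.09% in bin 1 and 2.71% in bin 2. With 1 array a sample no test between the samples was possible, and these counts describe the 2 arrays only.

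**Figure D3:**
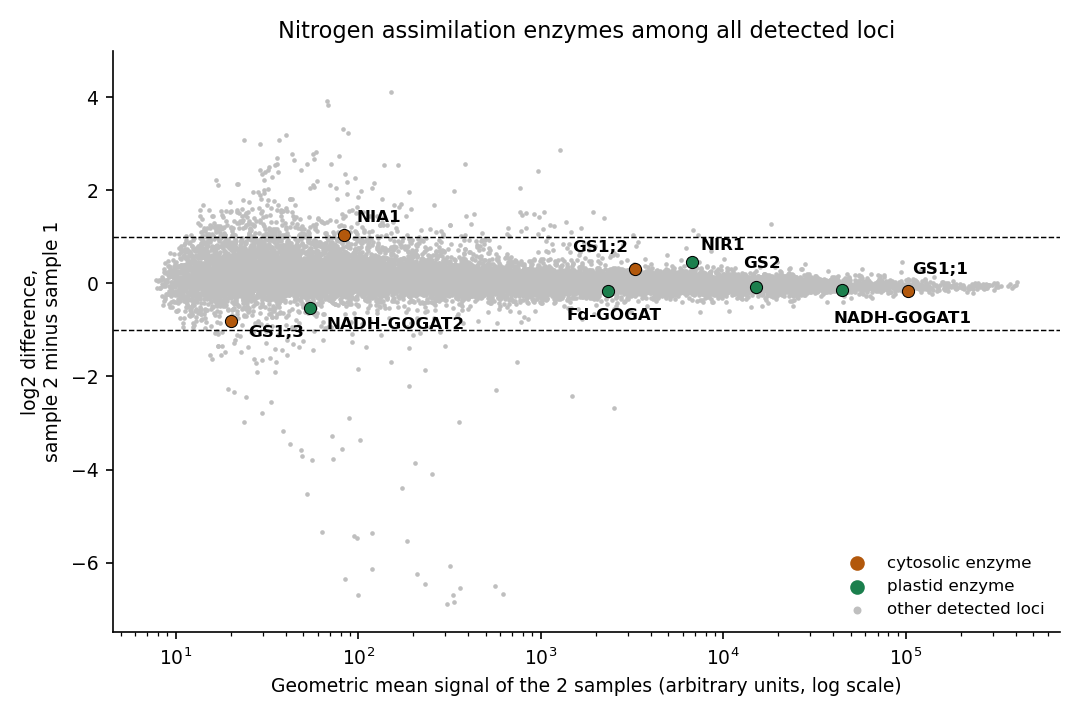
Log2 difference (y axis, sample 2 minus sample 1) against the geometric mean signal of both samples (x axis, arbitrary units, log scale) for all 19983 loci detected in both samples, with the 9 enzymes coloured by compartment and dashed lines at 2-fold. The cloud narrows toward bright signals, and NIR1 sits at its upper edge while NIA1 lies among faint loci that scatter widely.

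Other loci of nitrogen metabolism were compared from a list built on rice gene nomenclature. Of 28 listed loci 26 were on the array, 23 of them were detected in both samples (88.5%), and their median log2 difference was -0.01, with 10 higher in sample 2 and 13 in sample 1. Of the 3 further loci listed for nitrate reduction, 1 was on the array by systematic name. Os02g0770800, listed as a further nitrate reductase, read 158 and 281 with a log2 difference of 0.80 on each of its 2 probes. Os08g0468700, listed as a nitrate reductase and found by probe name alone, read 33.2 and 98.2, the first of which is under the highest control probe, with a difference of 1.54. It lies close to NIA1 in the numbering, binding of either transcript to the other's probes was not tested, and the loci are not taken as independent.

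Os06g0265000, listed as a second asparagine synthetase, read 598 and 866, with a log2 difference of 0.51 (SD 0.13 over 3 probes). The glutamate dehydrogenases, which can release or bind ammonium in the mitochondrion, were not higher in sample 2 after scaling. GDH1 (Os03g0794500) read 33915 and 29883 with a log2 difference of -0.21 (SD 0.07 over 2 probes). GDH2 (Os04g0543900) read 2609 and 2610, nearly unchanged, with a scaled log2 difference of -0.025. GDH3 (Os02g0650900) was not detected in either sample.

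Electron supply to the ferredoxin-dependent enzymes was read from 2 kinds of reductase. The ferredoxin-NADP reductases listed as root forms, Os03g0784700 and Os07g0147900, read 8620 and 9118, and 3187 and 3061, with log2 differences of 0.06 and -0.08. Of those listed as leaf forms, Os06g0107700 was detected in neither sample and Os02g0103800 in sample 2 alone. The only other locus of the list at least 2-fold apart was Os08g0104600, listed as a ferredoxin, which read 17.5 and 113, a 6.31-fold difference (log2 2.66, SD 0.78 over 5 probes). Its signal in sample 1 was under the highest control probe. Its difference lies in the wide range of the photosynthesis markers (0.15 to 4.12), and the part of leaf tissue in it was not tested.

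**Figure D4:**
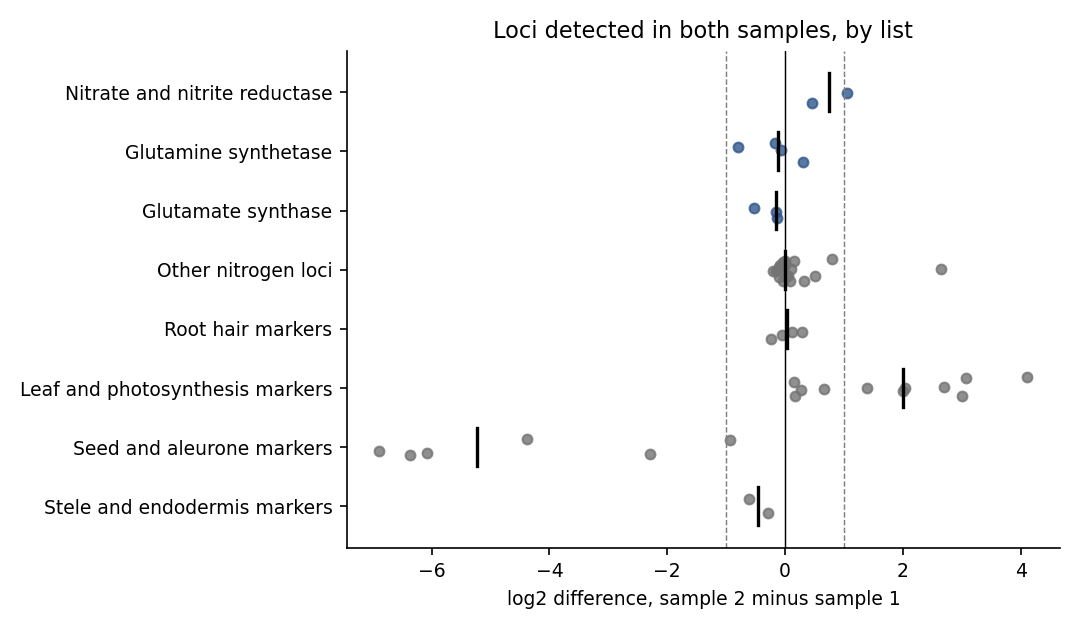
Log2 difference (x axis, sample 2 minus sample 1) of each locus detected in both samples, one point per locus with small vertical scatter, a black bar at the list's median and dashed lines at 2-fold. Both nitrate and nitrite reductase lie to the right of 0, the glutamine and glutamate synthases lie around it, and the leaf markers (median 2.00) and seed markers (median -5.23) lie far to either side.

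The directions of the 9 enzymes held in all of the processing alternatives in which they had a value. All alternatives use the same 2 arrays, so they show the effect of processing only. Some could hardly move a value. No probe of the enzymes carried an outlier flag on the spot itself, and GS1;2 has only 1 probe to choose from. NIR1 ranged from 0.36 to 0.47 over 9 alternatives, NIA1 from 0.57 to 1.05, GS1;2 from 0.22 to 0.33, and GS2 from -0.17 to -0.06. GS1;3 ranged from -1.03 to -0.28 and NADH-GOGAT2 from -0.73 to -0.24.

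**Figure D5:**
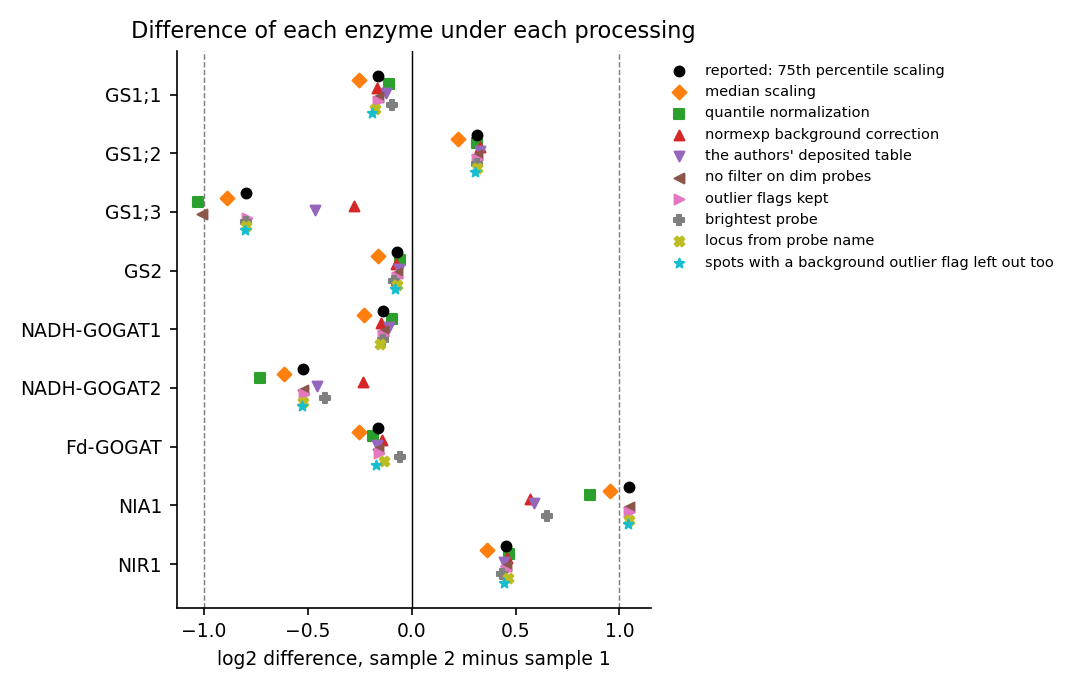
Log2 difference (x axis, sample 2 minus sample 1) of the 9 enzymes as reported (black) and under each alternative processing (coloured symbols), with dashed lines at 2-fold. No enzyme crosses 0, the symbols of NIR1 stay between 0.36 and 0.47, and those of GS1;3 spread most, from -1.03 to -0.28.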

How the data were processed

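Intensities were read from 2 one-colour arrays. Per the file headers, the authors' processed Cy3 signal intensity was background-subtracted and detrended by Feature Extraction 11.5.1.1, with an error for each spot; the submitters' processing notes name version 9.1. The authors also deposited a log2 table of both arrays with 1 present or absent call per spot; its making is not stated in those sources, and its log2 values followed the log2 median spot signal (r = 0.9995 and 0.9999 across spots). Direction and scale are those of signal, and its centring is unknown.

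Scanner controls (1417 spots), named control probes (590) and 24 spots with an outlier flag on the spot itself were left out. Spots flagged on the local background alone were kept, a choice made after the members' flags were seen. Signals under 1 were set to 1, scaled by each array's 75th percentile and put on the log2 scale; spots of a probe, then the probes of a locus well above background on both arrays, were averaged. The calculation was tested on simulated data with the same noise at every signal level. Real scatter grows toward faint signals, so that test checks the calculation and not the precision of the differences. Normexp (limma 3.58.1, offset 50) used median spot signals, as the files have no mean signal. Python 3.11.15, pandas 2.3.3 and numpy 2.4.6 were used.

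All 10 enzymes are named; of the other loci, those of nitrate reduction, asparagine synthetase and glutamate dehydrogenase, and any at least 2-fold apart, are named, and the reductases of ferredoxin were added after their values were seen, as were the shares among similarly bright probes and the count of enzymes higher in sample 2. Members and lists were chosen with earlier results of these data known. Of 10 member symbols 7, and of 28 others 7, were found once in the reference table on the chromosome that the identifier names. The ferredoxin-NADP reductases were searched under 1 shared symbol, so their root and leaf labels were not checked. The symbol AS2, listed for Os06g0265000, was found on chromosome 1 instead. The remaining names rest on rice nomenclature. The number of arrays limits the precision. No sequences are printed, as none was in the files used here.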

Additional observations from a re-analysis of the deposited data

How the results depend on the processing

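The number of enzymes at least 2-fold apart was 1 as reported, 0 with median scaling, 0 with normexp, 0 in the authors' deposited table and 2 without the filter on dim probes, where GS1;3 joined NIA1. It was also 1 with quantile normalization, but that 1 was GS1;3 (-1.03) and NIA1 stood at 0.86. For the other nitrogen loci the count was 1 as reported, 2 without the filter on dim probes and 2 with loci taken from probe names, an assignment chosen after seeing the data, as was leaving out spots with a background flag. Over all loci the count of 461 became 115 with normexp, 145 in the deposited table and 1188 without the filter on dim probes, and the share higher in sample 2 became 36.1% with median scaling, 44.3% with quantile normalization and 44.5% in the deposited table. The cause of these shifts was not tested. Detection held for 9 enzymes in either sample alone, for 8 with every probe required or above the control probes, and for 8 without background-flagged spots, which removes the only NADH-GOGAT1 probe. The median of the cytosolic forms (0.08) turned to -0.02 with median scaling and was between 0.05 and 0.11 otherwise, and that of the plastid forms (-0.14) was between -0.23 and -0.09. NIA1, the only enzyme that passed 2-fold as reported, did not change sign. For the other loci and markers past 2-fold, the sign across the alternatives was not examined. No paired analysis was possible because the series has 1 group. Signals near the control probes limit GS1;3, NADH-GOGAT2 and NIA1.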
